A study of Danio rerio with 8 samples.

Results

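Protocadherins are the largest branch of the cadherin superfamily of calcium-dependent cell adhesion proteins, and neurons of the vertebrate brain are their main site of expression. Clustered protocadherins lie in tandem arrays in which each variable exon has its own promoter, and in mammals each neuron uses a small, varying subset of them, which marks its own branches as self. Non-clustered protocadherins are encoded by separate genes, and most belong to the delta-1 and delta-2 groups, which act in cell sorting, axon growth and the pairing of synaptic partners.

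The protocadherins examined here were all genes whose symbol begins with pcdh in lower case in the deposited read counts, 54 of 28802 genes. By name, 37 were clustered and 17 were non-clustered. The clustered genes comprised 3 of the cluster 1 alpha type (such as *pcdh1a4*), 19 of the cluster 1 gamma type (such as *pcdh1g30*), 13 of the cluster 2 alpha type (such as *pcdh2ab9*), 1 of the cluster 2 gamma type (*pcdh2g17*) and *pcdhb*. The non-clustered genes comprised 6 of the delta-1 group, 7 of the delta-2 group and 4 others. The symbol *PCDH8*, written in capitals for a gene separate from *pcdh8*, did not meet the rule and was left out of every count of members. Its values are given beside those of *pcdh8*. Reads were counted per gene and not per exon. In the RefSeq annotation of a later zebrafish assembly (GRCz12tu), 46 of the 54 symbols were found, and the clustered genes formed overlapping models: all 3 cluster 1 alpha genes shared one end, as did 14 of 15 cluster 1 gamma genes and 9 of 9 cluster 2 alpha genes that were found. Reads from exons that such genes share cannot be assigned to one of them, so that the values of single clustered genes are uncertain to that extent. No sequence of these genes was used.

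The study asked whether hindbrain vestibular neurons that project to the eye motor neurons acquire a normal profile when those motor neurons are missing. Neurons came from *phox2a* null larvae (*phox2a*-/-, from alleles made by CRISPR/Cas9 and predicted to truncate the protein) and from sibling larvae (*phox2a*+/+ or +/-, so that controls include heterozygotes), both between 72 and 74 hours post-fertilization. Both genotypes carried the driver *Tg(-6.7Tru.Hcrtr2:GAL4-VP16)*, the Kaede reporter that it activates, *Tg(UAS:E1b-Kaede)*, and the motor neuron reporter *Tg(isl1:GFP)*. Neurons were dissected from many larvae, pooled and sorted on green fluorescence, which separates neither Kaede from GFP nor the projection neurons from other labeled hindbrain neurons, and each of 4 experimental repeats gave 1 bulk library per genotype. The repeats are lettered A to D by the run code of the deposited columns, which the sample labels do not carry. Columns that share a run code were taken as 1 repeat. Repeats A to C (3 libraries against 3) were compared, and repeat D, whose null library had few gene reads, was set aside. Repeat D was taken as the repeat that the study excluded, although no label links a run code to it.

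In these 6 libraries, reads on genes numbered 9579375 to 16992689 for null larvae and 18657956 to 19968857 for siblings. The null library from repeat C, abbreviated null C, stood apart from the other 5: it had reads on 11087 genes, against 16675 to 18409, and 62.4% of its listed reads were not aligned, against 11.8% to 16.1%. Levels are given as counts-per-million (CPM) after TMM normalization, in which this library had a factor of 0.518. Where a gene had 0 reads, up to 3 remain possible, equal to 0.609 normalized CPM in null C and 0.130 to 0.181 normalized CPM in the other 5, a limit that covers counting error only. *phox2a* itself had 59.8, 169 and 206 normalized CPM in the null libraries of repeats A, B and C, against 405, 410 and 201 normalized CPM in the sibling libraries. After TMM normalization the groups thus overlapped, through null C and the sibling library of repeat C alone. In reads, *phox2a* had 1125, 2811 and 1015 in the null libraries, against 9355, 9465 and 4151 in the sibling libraries. As a share of gene reads, every null library lay below every sibling library. Its log2 fold change was -1.22 (SE 0.62, adjusted p = 1.00 by edgeR), and reads of a null allele are counted like those of a functional one. Genes that mark neurons (7 of 7 with reads) summed to 17828 to 26315 normalized CPM in null libraries and 12788 to 17082 in siblings. Skin genes (7 of 7 with reads) summed to 0.723 to 3586 normalized CPM in null libraries, highest in repeat C, and 69.4 to 2777 in siblings, highest in repeat A. Glial genes (7 of 7 with reads) summed to 1931 to 2271 normalized CPM in null libraries and 1237 to 2060 in siblings. The part of these other cells in the protocadherin values was not tested.

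Protocadherin transcripts were present in every library, and no member passed the test between genotypes. Of the 54 members, 50, 44 and 34 had at least 1 read in the null libraries of repeats A, B and C, against 50, 49 and 49 in the sibling libraries. Over all 54 members the summed level was 3293, 2659 and 4048 normalized CPM in the null libraries, against 3263, 2962 and 3189 normalized CPM in the sibling libraries. The members *pcdh2ab3*, *pcdh2ab11* and *pcdh2ac* had no reads in these 6 libraries, and 47 had enough reads for the test. For a single gene, 3 libraries against 3 allow no exact permutation p below 0.1, so edgeR's fit over all genes was used. edgeR's quasi-likelihood test called 0 of these 47 members, as it called 0 of all 14824 genes tested (0%), when a call needed both a log2 fold change beyond 2 in size and an adjusted p below 0.05. At an unadjusted p under 0.05 it found 0 of 47 members, against 3.22% of all genes tested (2.46% higher and 0.762% lower in null larvae). The smallest unadjusted p among members was 0.083 (*pcdh1g11*). DESeq2 called 0 of the 45 members that it gave an adjusted p, against 0.853% of all genes with one. It found 1 of 48 members (*pcdh20*) at an unadjusted p under 0.05, against 5.66% of all genes. It gave no p to 3 further members, *pcdh7a*, *pcdh1g11* and *pcdh2ab10*, which it therefore could not call, and its log2 fold changes for them were 2.59, 3.47 and -0.28. The log2 fold change was above 0 for 18 members and below 0 for 29, with a median of -0.43, against -0.15 over all genes tested. Without null C, the median was -0.05 over 48 members and -0.03 over all genes. In bulk libraries, fewer cells of one type and less RNA per cell cannot be told apart.

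The delta-1 genes are *pcdh1a*, *pcdh1b*, *pcdh7a*, *pcdh7b*, *pcdh9* and *pcdh11*, whose products are adhesion molecules with a conserved tail that binds protein phosphatase. All 6 had over 10 reads in each of the 6 libraries. Summed over the group, the level was 1039, 735 and 2237 normalized CPM in the null libraries, against 1200.6, 922 and 1096 normalized CPM in the sibling libraries. The null libraries of repeats A and B thus lay below their own sibling libraries and that of repeat C lay above. The normalized sum of null C was mostly 1 gene, *pcdh7a*. The direction in repeat C depended on the scaling. With gene reads alone the sums were 1150, 805 and 1149 CPM in the null libraries, against 1388, 1111 and 1215 CPM in the sibling libraries. The null library was then the lower one in each repeat.

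*pcdh7a*, a counterpart of the NF-protocadherin that supports retinal axon growth in *Xenopus*, had 88.1, 34.1 and 1525 normalized CPM in the null libraries of repeats A, B and C, against 132, 91.9 and 127 normalized CPM in the sibling libraries. Null C held 92.6% of the summed null level, and the other null libraries both lay below every sibling library. The log2 fold change of *pcdh7a* was 2.23 (SE 1.24, adjusted p = 1.00 by edgeR) and -0.95 (SE 0.45) without that library. It was 0.27 with the repeat as a block and 1.19 (SE 0.97) with gene reads alone. Its paralog *pcdh7b* went the other way in repeat C, with 254, 123 and 58.3 normalized CPM in the null libraries and 260, 186 and 201 normalized CPM in the sibling libraries. In *pcdh7b* the null library was below the sibling library of its own repeat in 3 of 3 repeats, although the groups overlapped. A lower null level was common in repeat C. There, 7578 of all 14824 genes tested were more than 2-fold lower in the null library, with 1 CPM added to both. The share of all genes lower in 3 of 3 repeats was not counted, here or for *pcdh17* and *pcdh10a* below.

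*pcdh1b* did not overlap between genotypes. It had 211, 116 and 39.2 normalized CPM in the null libraries of repeats A, B and C, against 302, 239 and 273 normalized CPM in the sibling libraries. Every null library lay below every sibling library, and the siblings varied little, by 11.7% of their mean (coefficient of variation, the SD over the mean). The level of *pcdh1b* averaged 122 ± 85.9 CPM in null larvae and 271 ± 31.6 CPM in siblings (SD, n = 3 libraries each), with a log2 fold change of -1.16 (SE 0.66, adjusted p = 1.00 by edgeR). Without null C, the log2 fold change was -0.75 (SE 0.32, unadjusted p = 0.054 by edgeR), and without that of repeat A it was -1.84. The paralog *pcdh1a* had 55.5, 66.7 and 108 normalized CPM in the null libraries and 57.0, 46.6 and 68.6 normalized CPM in the sibling libraries. Its groups overlapped, and its log2 fold change of 0.42 (SE 0.60) became -0.06 when libraries were scaled to gene reads alone.

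*pcdh9* had the steadiest level of all tested members among siblings. It had 225, 229 and 58.1 normalized CPM in the null libraries, against 251, 235 and 230 normalized CPM in the sibling libraries, which varied by 4.75% of their mean. The null libraries of repeats A and B lay just under the sibling range and that of repeat C far under it. The log2 fold change of *pcdh9* was -0.48 (SE 0.61) and -0.08 (SE 0.23) without null C. *pcdh11* had 206, 166 and 448 normalized CPM in the null libraries and 198, 124 and 198 normalized CPM in the sibling libraries, so that only repeat C stood out after TMM normalization. Its log2 fold change was 0.66 (SE 0.57), 0.09 without null C and 0.10 (SE 0.46) with gene reads alone.

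**Figure D1:**
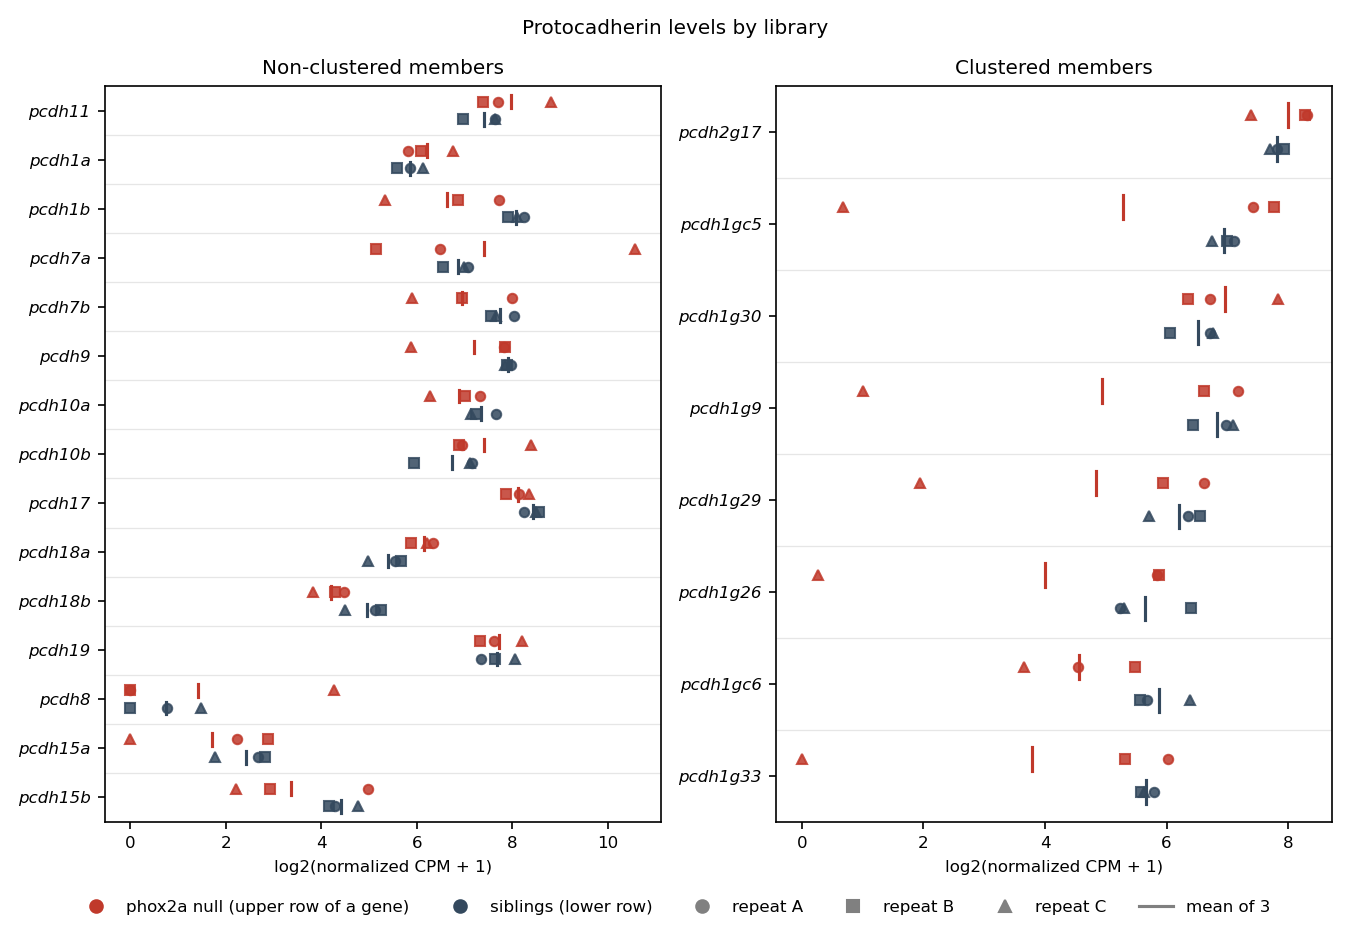
Level of the 23 named protocadherins in each library of repeats A to C, as log2 of normalized CPM plus 1, with *phox2a* null libraries in red above sibling libraries in dark blue, a marker shape per repeat and a vertical tick at the mean of 3. Sibling values cluster closely for most genes, while null C (red triangles) lies far to the right for *pcdh7a* and far to the left for *pcdh1gc5*, *pcdh1g9*, *pcdh1g26* and *pcdh1g33*.

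The delta-2 genes are *pcdh8*, *pcdh10a*, *pcdh10b*, *pcdh17*, *pcdh18a*, *pcdh18b* and *pcdh19*, several of which recruit the actin-regulating WAVE complex through their tails. Their summed level was 862, 712 and 1134 normalized CPM in the null libraries of repeats A, B and C, against 882, 873 and 954 normalized CPM in the sibling libraries. The means, 903 ± 214 in null larvae and 903 ± 44.5 CPM in siblings (SD, n = 3 libraries each), were the closest of the groups, and the spread was larger in null larvae. Scaled to gene reads alone, the mean within-repeat log2 ratio of null over sibling was -0.46, against -0.03 after TMM normalization.

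*pcdh17*, which in mice brings the WAVE complex to contacts between axons that extend together, had 282, 232 and 324 normalized CPM in the null libraries and 301, 377 and 359 normalized CPM in the sibling libraries. It was below the sibling library of the same repeat in 3 of 3 repeats, with overlapping groups and a log2 fold change of -0.31 (SE 0.45). *pcdh19*, whose human counterpart is mutated in a female-limited epilepsy and which organizes columns of neurons in the zebrafish optic tectum, had 196, 160 and 294 normalized CPM in the null libraries and 160, 199 and 264 normalized CPM in the sibling libraries. These ranges nearly coincided, with a log2 fold change of 0.06 (SE 0.51) whose sign turned with the scaling (-0.40 with gene reads alone).

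The paralogs *pcdh18a* and *pcdh18b* lay on opposite sides of their siblings. *pcdh18a* had 80.4, 57.6 and 72.9 normalized CPM in the null libraries, against 45.4, 49.8 and 30.5 normalized CPM in the sibling libraries. Every null library was above every sibling library, and this was the case after TMM and after RLE factors (relative log expression, computed in edgeR) but not with gene reads alone. *pcdh18b*, which in zebrafish controls the growth and branching of motor axons with the WAVE component Nap1, had 21.2, 18.5 and 13.2 normalized CPM in the null libraries, against 34.0, 37.2 and 21.4 normalized CPM in the sibling libraries. Every null library was below every sibling library under all 3 scalings. The log2 fold changes were 0.75 (SE 0.60) for *pcdh18a* and -0.81 (SE 0.79) for *pcdh18b*, both with an adjusted p of 1.00 by edgeR. Without null C, they were 0.71 (SE 0.37) and -0.65 (SE 0.48), so both patterns were also present without that library. The difference between the paralogs was not tested.

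*pcdh10a* and *pcdh10b*, counterparts of mouse OL-protocadherin, which guides axons of the striatum, parted in repeats B and C. *pcdh10a* had 160, 128 and 76.4 normalized CPM in the null libraries and 199, 150 and 140 normalized CPM in the sibling libraries. It was below the sibling library in 3 of 3 repeats, with overlapping groups and a log2 fold change of -0.43 (SE 0.53). *pcdh10b* had 123, 116 and 336 normalized CPM in the null libraries and 142, 60.3 and 138 normalized CPM in the sibling libraries. Its log2 fold change was 0.76 (SE 0.65), 0.06 without null C and 0.16 (SE 0.55) with gene reads alone. *pcdh8*, the paraxial protocadherin of early mesoderm, had 0, 0 and 90 reads in the null libraries and 16, 0 and 37 reads in the sibling libraries. All of its null reads were thus in 1 library, and its fitted log2 fold change of 2.86 had an SE of 2.89. The separate symbol *PCDH8*, outside the rule, had more reads and went the other way in null C. It had 34.9, 85.6 and 0.203 normalized CPM in the null libraries and 46.7, 78.4 and 48.8 normalized CPM in the sibling libraries. Its log2 fold change was -0.52 (SE 1.35).

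**Figure D2:**
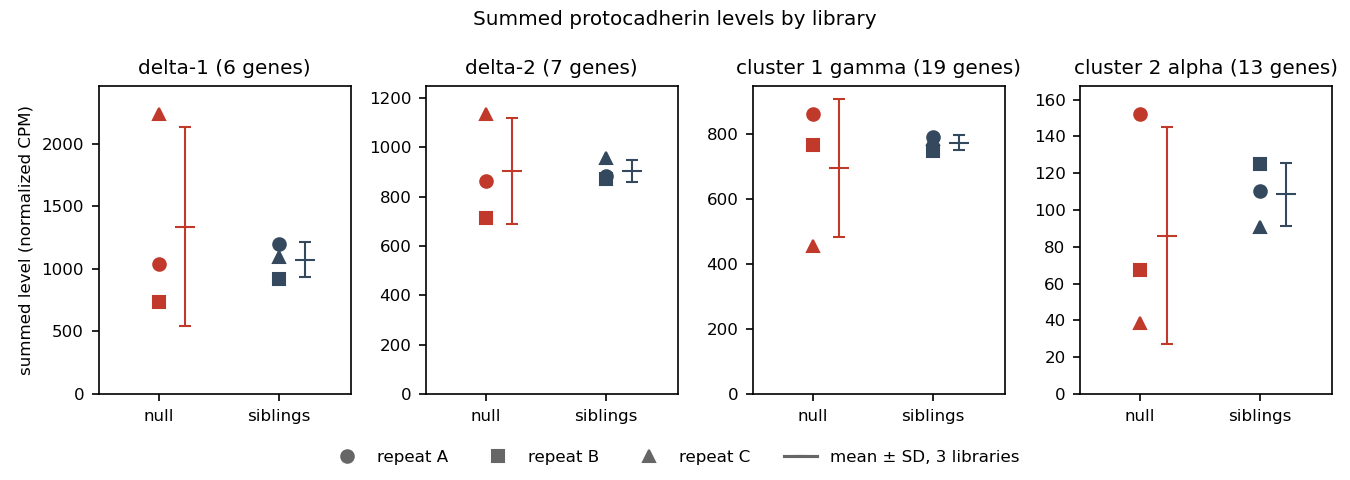
Summed level (normalized CPM, axis from 0) of the delta-1, delta-2, cluster 1 gamma and cluster 2 alpha genes in each *phox2a* null library (red, left) and sibling library (dark blue, right) of repeats A to C, with mean ± SD of 3 libraries. Null sums of cluster 1 gamma genes spread from 455 to 861 CPM, against 747 to 789 CPM in siblings, and the highest delta-1 sum, 2237 CPM, is null C.

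The other 4 non-clustered genes were sparse. *pcdh15a*, which encodes a component of the tip link of hair cells in zebrafish, had 3.67, 6.39 and 0 normalized CPM in the null libraries and 5.37, 6.06 and 2.42 normalized CPM in the sibling libraries. Its paralog *pcdh15b*, needed in zebrafish photoreceptors, had 30.4, 6.57 and 3.66 normalized CPM in the null libraries and 18.6, 16.8 and 26.4 normalized CPM in the sibling libraries. Both overlapped between genotypes. Markers of hair cells and the otic vesicle (7 genes, all with reads) summed to 54.5 to 94.1 normalized CPM in null libraries and 43.1 to 45.8 in siblings, and their part in the *pcdh15a* and *pcdh15b* values was not tested. *pcdh12*, an endothelial protocadherin, had 1 read in the null library of repeat A and none in the other 5, and endothelial markers (5 genes, *egfl7* with no reads) summed to at most 2.64 normalized CPM in any library.

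*pcdh20*, which in mice contributes to the layering of cortical neurons, had too few reads for the edgeR test and was singled out after its values were seen. It had 2, 0 and 0 reads in the null libraries of repeats A, B and C, against 189, 8 and 92 reads in the sibling libraries. The null libraries were all at or next to 0, while the sibling of repeat B was near them with 8 reads. The ratio of pooled normalized reads was 0.0115 in null over siblings (95% exact interval 0.00138 to 0.0418, covering counting error only). DESeq2, which found 2.47% of the genes with a p-value lower in null larvae at an unadjusted p under 0.05, gave *pcdh20* a log2 fold change of -6.36 (unadjusted p = 7.6e-04, adjusted p = 0.071). With the repeat as a block the DESeq2 adjusted p was 0.13. It was therefore not called.

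The cluster 1 gamma genes, the most numerous clustered type here, had a summed level of 861, 766 and 455 normalized CPM in the null libraries of repeats A, B and C, against 789, 747 and 783 normalized CPM in the sibling libraries. The null library was above its sibling library in repeats A and B and below it in repeat C. Among null libraries the level of the median gene of the 19 varied by 89.7% of its mean, against 89.8% for the median of all genes tested. Among siblings the 19 genes varied by 8.20% to 128% of their means, with a median of 36.1%, against 40.1% for all genes tested. The part of reads on shared exons in these values was not tested.

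The cluster 1 gamma genes with the most reads were *pcdh1g30*, *pcdh1gc5*, *pcdh1g9*, *pcdh1g29*, *pcdh1g26*, *pcdh1gc6* and *pcdh1g33*. Read numbers were not divided by length and give no order of expression between genes. *pcdh1gc5*, named as a C-type isoform, a type that in mammals is expressed more evenly across neurons, had 170, 217 and 0.610 normalized CPM in the null libraries, against 136, 126 and 106 normalized CPM in the sibling libraries. The null libraries of repeats A and B lay above every sibling library, and that of repeat C had 3 reads. The log2 fold change was 0.07 (SE 1.305), and 0.64 without null C (SE 0.26, unadjusted p = 0.044, adjusted p = 1.00 by edgeR). In that fit 2 of 48 members, the other being *pcdh20*, had an unadjusted p under 0.05, against 4.05% of all genes tested. The other C-type isoform, *pcdh1gc6*, had 22.4, 43.5 and 11.6 normalized CPM in the null libraries, against 50.1, 46.2 and 82.6 normalized CPM in the sibling libraries. Every null library lay below every sibling library under all 3 scalings, and the log2 fold change was -1.21 (SE 0.76, adjusted p = 1.00 by edgeR).

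The remaining named cluster 1 gamma genes lay within 2-fold of their sibling library in repeats A and B. *pcdh1g9* had 143, 97.0 and 1.02 normalized CPM in the null libraries and 125, 85.5 and 136 normalized CPM in the sibling libraries. *pcdh1g33* had 64.1, 39.1 and 0 normalized CPM in the null libraries and 54.5, 46.6 and 48.6 normalized CPM in the sibling libraries. *pcdh1g29* had 97.1, 60.4 and 2.84 normalized CPM in the null libraries and 81.1, 92.3 and 51.6 normalized CPM in the sibling libraries. In all of these only null C lay far from the rest. *pcdh1g26* had 56.6, 57.8 and 0.203 normalized CPM in the null libraries and 36.5, 83.8 and 38.5 normalized CPM in the sibling libraries. *pcdh1g30* was different in null C after TMM normalization, with 103, 80.6 and 228 normalized CPM in the null libraries and 104, 65.8 and 108 normalized CPM in the sibling libraries. Its log2 fold change was 0.57 (SE 0.61) after TMM normalization and 0.003 (SE 0.54) with gene reads alone. Without null C, the log2 fold changes of these 5 genes lay between -0.02 (*pcdh1g30*) and 0.10 (*pcdh1g26*), with SEs from 0.32 (*pcdh1g9*) to 0.45 (*pcdh1g26*).

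*pcdh2g17*, the 1 cluster 2 gamma gene in the counts, had 315, 310 and 166 normalized CPM in the null libraries, against 224, 243 and 207 normalized CPM in the sibling libraries. As for *pcdh1gc5*, the null libraries of repeats A and B were above every sibling library and that of repeat C was below. Its log2 fold change was 0.23 (SE 0.49), 0.46 (SE 0.23) without null C, and -0.01 with gene reads alone. Cluster 2 alpha genes summed to 152, 67.4 and 38.8 normalized CPM in the null libraries, against 110, 125 and 90.6 normalized CPM in the sibling libraries. Of the 13, 9 were tested, with a median log2 fold change of -0.25. The 3 cluster 1 alpha genes summed to 27.3, 54.5 and 13.003 normalized CPM in the null libraries, against 24.0, 28.3 and 24.2 in the sibling libraries. The 24 other clustered genes that were tested had log2 fold changes from -2.28 (*pcdh1g3*) to 3.11 (*pcdh1g11*), 8 above 0 and 16 below. No read in null C was found for 11 of the 24. That library had reads on 11087 genes, against 16675 to 18409 in the other 5. The share of all genes tested without a read there was not counted. *pcdh1g11* had 5.05, 1.69 and 85.9 normalized CPM in the null libraries and 1.602, 2.90 and 6.19 normalized CPM in the sibling libraries, so that its difference again lay in repeat C. Of the 24, *pcdh1g2*, *pcdh1g3* and *pcdh2ab10* had no read in null C and also none in the null library of repeat B. They had 176, 56 and 223 reads in the null library of repeat A, and 30 to 205 reads in each sibling library.

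Each repeat was then read on its own, as the log2 ratio of null over sibling with 1 CPM added to both. In repeat A, 39 of 47 members were within 2-fold of their sibling library, in repeat B 35, and in repeat C 9. These are 83.0%, 74.5% and 19.1% of members, against 77.5%, 60.8% and 27.4% of all genes tested. In repeat A all 15 non-clustered genes tested were within 2-fold, and in repeat B all 7 delta-2 genes were. The cluster 2 alpha genes had a median log2 ratio of -1.15 in repeat B, against -0.01 over all genes. Of these 9 genes, 3 were within 2-fold, 5 were lower and 1 was higher in the null library. In repeat C 0 of 19 cluster 1 gamma genes were within 2-fold, with 15 lower and 4 higher in the null library. Their median log2 ratio was -3.36, against -1.08 over all genes. These ratios were taken after TMM normalization, with a factor of 0.518 for null C and 1.11 for its sibling library. The counts in repeat C depend on that scaling and were not taken with gene reads alone. For example, *pcdh1g30*, among the 4 higher, had 1120 of 9579375 gene reads in null C and 2233 of 18657956 in its sibling library.

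**Figure D3:**
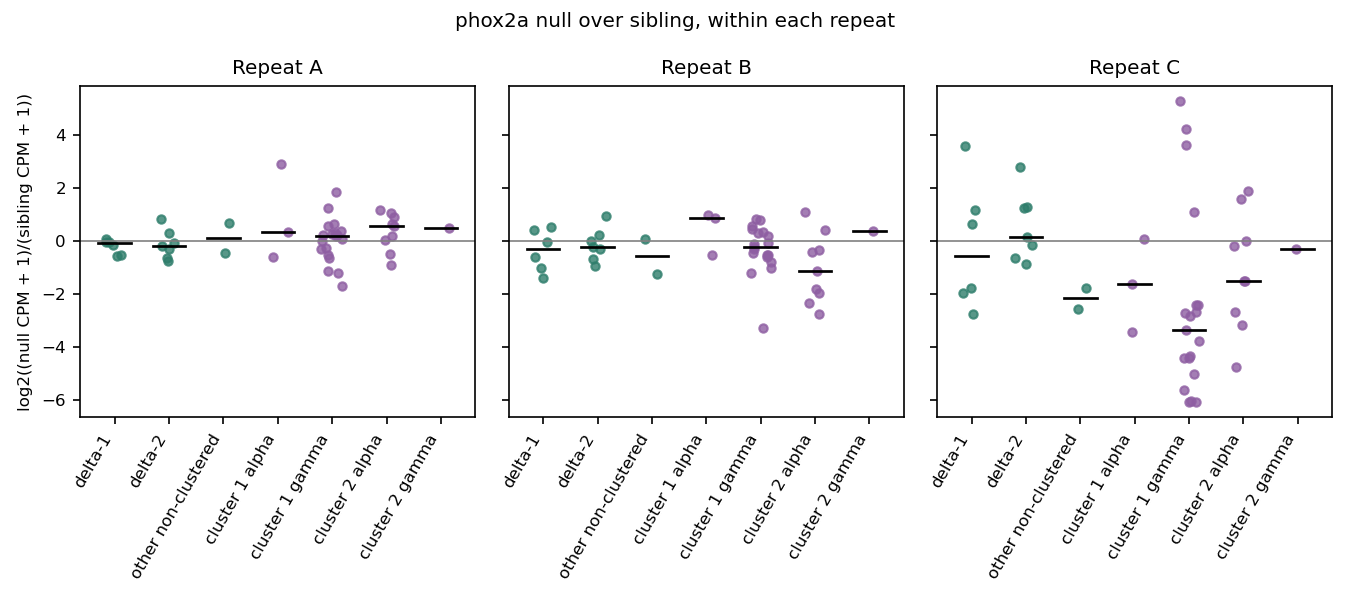
Log2 ratio of null over sibling level (1 CPM added to both) for the 47 tested protocadherins within repeats A, B and C, each point a gene, green for non-clustered and purple for clustered groups, with a bar at the group median. Most points lie within 1 of 0 in repeats A and B, although the cluster 2 alpha median in repeat B is -1.15. In repeat C points spread from -6.08 to 5.27, and most cluster 1 gamma genes lie below -2.

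Low reads in null C were counted over genes with at least 100 reads in each of the other 5 libraries, a limit chosen after the values were seen. Of 30 such members, 10 had at most 10 reads in that library (33.3%), against 25.9% of the 8153 such genes. All 10 were clustered (10 of 17, 58.8%), 9 of them of the cluster 1 gamma type (9 of 12), and 0 of 13 non-clustered members were. The non-clustered *PCDH8*, outside the rule only by its capitals, also met this limit. It had 1 read in null C and 657 to 1811 reads in the other 5 libraries, so low reads there were not limited to clustered genes. This is a description of 1 library, with no replicate. Of 15 cluster 1 gamma genes found in the annotation, 14 share one end, so the 9 may not be independent observations. Read depth varied among the 10 clustered genes. In the other 5 libraries *pcdh1g18* had 117 to 217 reads and *pcdh1gc5* had 2194 to 3601. The part of depth in the difference between classes was not tested.

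Groups that do not overlap, all 3 null libraries on one side of all 3 sibling libraries, were found for 5 of 47 members (10.6%), 1 higher (*pcdh18a*) and 4 lower (*pcdh1b*, *pcdh9*, *pcdh18b* and *pcdh1gc6*) in null larvae. Over all 14824 genes tested the share was also 10.6%, with 3.09% higher and 7.52% lower. With RLE factors *pcdh9* was not among them. With gene reads alone *pcdh18a* was replaced by *pcdh17*, lower in null larvae. With fewer libraries to compare, 10 of the 47 did not overlap without null C (21.3%, against 20.1% of all genes), and 19 without the null library of repeat A (40.4%, against 27.9% of all genes).

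**Figure D4:**
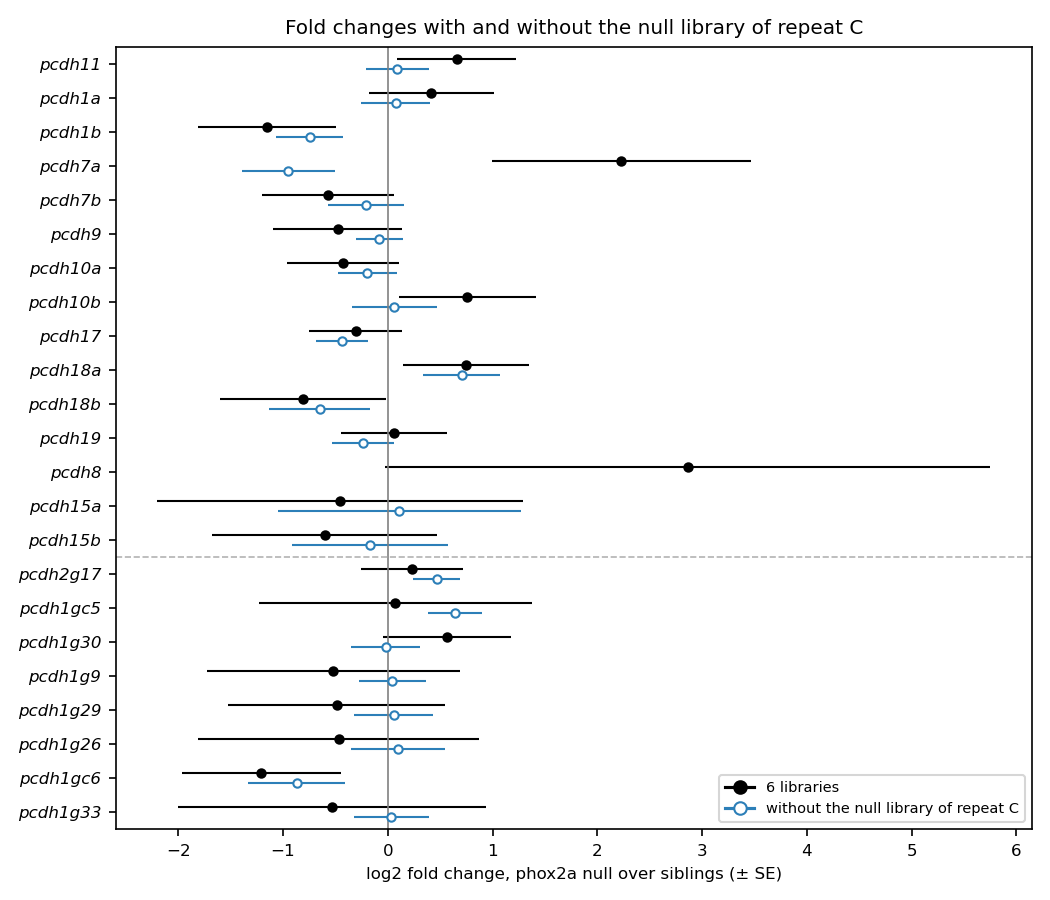
Log2 fold change (null over siblings) ± SE from edgeR for the 23 named protocadherins, with all 6 libraries (black) and without null C (open blue); non-clustered genes are above the dashed line. The value of *pcdh8* without that library is not drawn, because the other null libraries had no reads. Most open points lie nearer 0 with shorter bars, and *pcdh7a* crosses from 2.23 to -0.95. *pcdh1b*, *pcdh18b* and *pcdh1gc6* stay below 0, as do *pcdh7b*, *pcdh9*, *pcdh10a*, *pcdh15b* and *pcdh17*.

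Genes that act with protocadherins were read from a list of 52, of which 44 were tested. None of the 44 had an unadjusted p under 0.05 by edgeR, against 3.22% of all genes tested. Without null C, 1 of 45 did, against 4.05%. Of the 44 log2 fold changes, 22 were above 0 and 22 below, with a median of 0.0044. Over all genes tested, 6535 were above 0 and 8289 below, with a median of -0.15. The groups did not overlap for 2 that were higher in null larvae (*brk1* and *celsr3*) and 3 that were lower (*abi1b*, *adam10b* and *celsr2*), against 3.09% and 7.52% of all genes. Of the 16 genes for CTCF and cohesin, which in mammals choose the promoters of clustered protocadherins, all were tested, 9 above 0 and 7 below. *ctcf* had a log2 fold change of -0.33 (SE 0.74) and the cohesin subunit *rad21a* -0.23 (SE 0.56). Of 12 genes of the WAVE complex, 10 were tested, 6 above 0 and 4 below, from -3.63 (*cyfip1*, SE 2.43) to 1.53 (*cyfip2*, SE 0.85). *cyfip2*, a WAVE subunit, had 304, 260 and 2243 normalized CPM in the null libraries and 353, 246 and 372 normalized CPM in the sibling libraries, so that, as for *pcdh7a*, null C alone was high. Kinases at the protocadherin tail had 5 of 6 genes tested, with *fyna* at 0.07 (SE 0.46) and *ptk2ab*, a focal adhesion kinase, at -0.07 (SE 0.59). The sheddase *adam10a* was at 0.19 (SE 0.63), and the 9 tested relatives of the Celsr, Fat and Dachsous families had a median of -0.29.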

How the data were processed

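Low-input SMART-Seq HT libraries were sequenced on an Illumina NovaSeq. The authors deposited counts, whole reads per gene and library without normalization, after alignment to GRCz11 with Kaede and GFP sequences added. The aligner and counter are not given in the sources used here. Of 28807 rows, 5 name no gene (unaligned, outside genes, not unique, low quality or ambiguous). They held 41.2% to 84.3% of listed reads in repeats A to C and were left out of every sum and test. The deposited table of scaled values was not used.

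Genotypes were compared with edgeR 4.0.16 in R 4.3.3 (filterByExpr, TMM, glmQLFit and glmQLFTest) over all 14824 genes kept, with Benjamini-Hochberg adjustment over all of them. The fit was also run on simulated data, whose outcome is not given here. Its common coefficient of variation between libraries was 1.13, and the smallest change that it could call was not determined. Each SE is the log2 fold change divided by the square root of F. Each repeat gave 1 library per genotype, so the repeat was tried as a block. Their deviations from genotype means correlated at 0.027, 0.082 and 0.050 in repeats A, B and C. Other alternatives were DESeq2 1.42.0, RLE factors, gene reads alone, no filter, 10 reads in every library, all 4 repeats, and each library left out. Libraries are pools, so p-values measure spread between pools.

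Named genes were non-clustered members tested, the 8 clustered members with most normalized reads, those at an unadjusted p under 0.05, up to 10 whose groups did not overlap, and untested members with reads in every library of 1 genotype only (0 found). The members and lists were chosen with earlier results of these data known. Ensembl IDs were found for 40 of 54 symbols. Summed marker lists not given with the results were, in null and sibling libraries, muscle (2.05 to 29.7 and 0.389 to 11.4 normalized CPM), microglia and macrophages (56.7 to 99.6 and 31.1 to 170), erythroid (0.406 to 4.88 and 0.0865 to 0.435) and cartilage and connective tissue (3.88 to 115 and 0.217 to 39.0).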

Additional observations from a re-analysis of the deposited data

Results flagged for a closer look

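Protocadherin reads of repeat D, taken as the repeat that the study excluded, lay outside the main comparison of repeats A to C. In its null library, 95.4% of listed reads were not aligned, and a small number of top-ranked genes held 93.2% of the gene reads. There, 15002 of 735217 gene reads were on *pcdh19*, 20405 CPM of gene reads. This compares with 186 to 634 CPM in the 4 sibling libraries and at most 217 CPM in the null libraries of repeats A to C. *pcdh19* held 97.9% of the protocadherin reads of the excluded null library and was its gene of rank 24 by reads. *pcdh7a* had 234 reads there, 318 CPM, against 18.03 to 153 CPM in the sibling libraries, and up to 784 CPM in null larvae from the other 3 repeats. Of the 54 members, 12 had a read in that library, and 3 had over 10. Each value is 1 library, in which 2214 genes had a read. The edgeR fit over all 4 repeats includes this library. There the log2 fold change was 8.40 (SE 2.88, adjusted p = 0.35 by edgeR) for *pcdh19* and 4.38 (SE 1.48, adjusted p = 0.32 by edgeR) for *pcdh7a*.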

How the results depend on the processing

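No protocadherin was called under any of the 14 alternatives of the fit, although DESeq2 without the block gave 3 members no p. Over all genes, calls numbered 0 by edgeR, 40 by edgeR over all 4 repeats, 129 by DESeq2 and 295 by DESeq2 with the replicate block; the cause was not tested. Members at an unadjusted p under 0.05 numbered 0, and 2 of 51 with no filter (*pcdh7a* and *pcdh20*, against 5.19% of all genes), 2 of 45 over all 4 repeats (*pcdh7a* and *pcdh19*, against 3.36%), 1 of 48 by DESeq2 (against 5.66%), 4 of 51 by DESeq2 with the replicate block (against 6.69%, all but *pcdh1b* of the 5 named next), 0 by edgeR with the replicate block (against 0.681%), and 0 to 5 with 1 library left out (5 of 48, *pcdh1b*, *pcdh1g2*, *pcdh1g3*, *pcdh20* and *pcdh2ab10*, all lower in null larvae, without the null library of repeat A, against 8.68% of all genes). Members whose groups did not overlap numbered 5 of 47, 1 over all 4 repeats (*pcdh1b*, against 1.54% of all genes) and 5 to 19 with 1 library left out, where the share of all genes was 16.4% to 27.9%. Over all 4 repeats the mean within-repeat log2 ratio of the summed level was -0.92 (SD 1.59) for clustered, 0.95 (SD 1.72) for delta-1 and 2.05 (SD 4.20) for delta-2 genes. The null library of repeat D had a TMM factor of 0.0743 in that setting. Over repeats A to C the ratios were -0.14 (SD 0.51), 0.16 (SD 0.75) and -0.03 (SD 0.27). With gene reads alone the ratios were -0.57 (SD 1.09) for clustered, -0.27 (SD 0.20) for delta-1 and -0.46 (SD 0.38) for delta-2 genes. Gene reads alone moved the median log2 fold change of all genes from -0.15 to -0.36. Of 315 log2 fold changes of the 23 named members under alternatives, 290 kept their direction and 25, of 13 members, turned it. With gene reads alone these were *pcdh1a* (-0.0611), *pcdh19* (-0.40), *pcdh2g17* (-0.0128) and *pcdh1gc5* (-0.0043). *pcdh19* also turned with no filter (-0.0175) and with 10 reads in every library (-0.0792), *pcdh17* (1.19) and *pcdh2g17* (-0.17) over all 4 repeats, and *pcdh8* (-0.40) and *pcdh1gc5* (-0.98 by edgeR and -0.98 by DESeq2) with the replicate block. With 1 library left out the log2 fold change ranged from -0.95 to 2.76 for *pcdh7a*, -0.23 to 0.22 for *pcdh19*, -7.09 to 4.02 for *pcdh8*, -1.31 to 0.11 for *pcdh15a*, -0.53 to 0.64 for *pcdh1gc5*, -0.0218 to 0.82 for *pcdh1g30*, -1.25 to 0.0446 for *pcdh1g9*, -1.26 to 0.0574 for *pcdh1g29*, -0.90 to 0.10 for *pcdh1g26* and -1.37 to 0.0345 for *pcdh1g33*. Of these 13 members, 9 turned without the null library of repeat C. The replicate block changed no call of a member by either tool.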
